A study of Homo sapiens with 9 samples.

Results

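The loci described here are stretches of the genome of a melanoma cell line where RNA was assembled into transcripts that overlap no annotated gene. A member is a transcript on chromosomes 1 to 22 or X whose span overlaps no RefSeq gene span of GRCh38 on either strand. Overlapping members of the 9 libraries were merged into 1 locus, and a locus was called spliced where any of its transcripts has an intron and single-exon otherwise. The rule gave 2661 loci of 17753 in the whole series, of which 231 were spliced and 2430 single-exon. They hold 9806 transcripts of at least 300 bases, 813 of them spliced, out of 257156 transcripts of any length. Another 185 transcripts outside genes were under 300 bases and were left out.

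RNA outside annotated genes comes from several known sources. RNA polymerase II continues past the poly(A) site before it is released, so weak transcripts are often seen just downstream of genes, and alternative poly(A) sites can carry a messenger RNA past its annotated end. Promoters are often transcribed in both directions, and long noncoding RNAs missing from a gene catalogue appear as spliced transcripts of their own. An intron found at the same bases in several libraries marks a processed RNA, whereas a single-exon transcript has no such mark and cannot be given a strand when the library does not record one.

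The RNA came from WM3248, an established human melanoma line, kept in a low-serum melanocyte medium. All 9 cultures were of this 1 line and were collected 24 h after ARN22089 was added at 0, 4 or 6 µM, the 0 µM group being labelled as untreated with DMSO, and each dose has 3 libraries. ARN22089 is a small molecule made to block the binding of CDC42-family GTPases to their effectors. Libraries were made from polyadenylated RNA, and the labels leave it unsaid whether libraries of 1 dose are independent experiments, although each replicate number carries its own date-like tag, so p-values measure the spread between these libraries.

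Levels are in FPKM, fragments normalised to transcript length and to the mapped fragments of the library, and a locus's level is the sum over its transcripts in a library. No fragment counts were available, so depth is known only relative to the median library, as 0.948, 0.974 and 1.30 at 0 µM, then 1.00, 0.979 and 0.802 at 4 µM and 1.34, 1.00 and 1.10 at 6 µM. In at least 1 library, all 7 melanocyte lineage markers reached 1 FPKM (summed level 178 to 576 FPKM over the libraries), as did 5 of 5 fibroblast markers (17.8 to 64.7 FPKM) and 1 of 3 keratinocyte markers (0 to 2.27 FPKM). Not all were found throughout: COL1A1 was listed at 0 in all libraries at 6 µM, MLANA in the third at 0 µM and PDGFRA in the first at 4 µM. The 4 leukocyte markers were listed at 0. Between libraries of the same dose, log2 levels correlated across all features tested with r from 0.885 to 0.919. Across the loci outside genes r was only 0.282 to 0.472 for the same pairs. These correlations are a description, and the loci were the less repeatable.

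The junctions below are shown because they are what identifies a spliced locus as a processed RNA: each comes from an intron found at the same bases in all 9 libraries and listed in GENCODE v44, a larger gene catalogue than RefSeq. The list drawn on here held 13 such introns in 8 GENCODE genes, all long noncoding RNAs, and may not hold every such intron. Each line gives the last 20 bases of the upstream exon in lower case and the first 20 bases of the downstream exon in capitals, 5′ to 3′, from GENCODE's transcript sequences, with the intron's GRCh38 position.

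ENSG00000258927, intron chr14:95621034-95639952, plus strand: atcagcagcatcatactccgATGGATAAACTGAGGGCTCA
ENSG00000258927, intron chr14:95640149-95641740, plus strand: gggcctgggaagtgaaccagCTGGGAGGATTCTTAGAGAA
ENSG00000258927, intron chr14:95641871-95642017, plus strand: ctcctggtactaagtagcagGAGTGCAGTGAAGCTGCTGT
ENSG00000249022, intron chr4:153036981-153066189, plus strand: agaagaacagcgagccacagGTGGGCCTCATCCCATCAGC
ENSG00000249022, intron chr4:153084340-153091043, plus strand: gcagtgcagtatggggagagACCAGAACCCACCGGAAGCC
ENSG00000227297, intron chr20:57600229-57600911, minus strand: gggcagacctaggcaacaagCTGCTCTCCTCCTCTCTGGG
ENSG00000254350, intron chr5:158424691-158452158, plus strand: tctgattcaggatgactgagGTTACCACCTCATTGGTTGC
ENSG00000250993, intron chr4:179390090-179465194, minus strand: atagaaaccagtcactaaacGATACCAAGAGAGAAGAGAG

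At the other end of the scale stand single-exon loci that reach into the promoter of an annotated gene without touching the gene. The 3 windows below are the 250 bases before a RefSeq start site (RefSeq sequence of GRCh38), and capitals mark the bases that a locus outside genes covers. They are shown because the level of each locus by dose is described further on.

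MLXIP, chr12:122078506-122078755, plus strand: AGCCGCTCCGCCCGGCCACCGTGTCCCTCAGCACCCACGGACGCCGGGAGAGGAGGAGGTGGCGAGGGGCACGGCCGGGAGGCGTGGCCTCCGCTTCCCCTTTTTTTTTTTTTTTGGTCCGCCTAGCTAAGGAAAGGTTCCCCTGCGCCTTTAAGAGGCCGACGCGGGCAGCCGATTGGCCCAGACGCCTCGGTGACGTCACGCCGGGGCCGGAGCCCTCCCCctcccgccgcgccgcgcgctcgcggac
ATP1B3, chr3:141876393-141876642, plus strand: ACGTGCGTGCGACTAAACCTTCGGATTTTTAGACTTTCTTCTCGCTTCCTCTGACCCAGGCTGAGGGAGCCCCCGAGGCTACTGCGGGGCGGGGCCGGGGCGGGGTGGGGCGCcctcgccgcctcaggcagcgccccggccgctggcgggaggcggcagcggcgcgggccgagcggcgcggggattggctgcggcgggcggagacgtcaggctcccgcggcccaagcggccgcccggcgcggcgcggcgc
ZMPSTE24, chr1:40257986-40258235, plus strand: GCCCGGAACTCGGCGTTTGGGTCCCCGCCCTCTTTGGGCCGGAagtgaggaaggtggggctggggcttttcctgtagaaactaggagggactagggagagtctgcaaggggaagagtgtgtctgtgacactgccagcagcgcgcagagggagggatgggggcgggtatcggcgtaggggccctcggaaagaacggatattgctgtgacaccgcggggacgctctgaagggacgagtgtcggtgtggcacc

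MLXIP encodes MondoA, a glucose-sensing transcription factor, ATP1B3 a beta subunit of the sodium pump, and ZMPSTE24 the protease that matures lamin A. In all, 135 of 27195 RefSeq windows (0.496%) were reached by a locus outside genes. On either strand, GGGCGG occurred in 65.9% of the windows reached and 42.4% of all windows, CCAAT in 30.4% and 33.0%, and TATAAA in 7.41% and 11.1% of windows; matches of different words can share bases and were counted separately. The median GC content was 67.2% in the windows reached and 58% in all. These letter matches describe the windows and say nothing of binding.

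Most loci were short, weak and near a gene. The median single-exon locus spanned 1221 bases and had a mean level of 0.208 FPKM, against 6660 bases and 0.813 FPKM for the median spliced locus. Of the single-exon loci, 1760 (72.4%) lay within 5 kb of a gene, 1146 of them past its 3′ end and 428 before its start, and 500 lay within 250 bases. Of the spliced loci, 95 (41.1%) lay within 5 kb, 136 lay further away and 31 were more than 50 kb from any gene.

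Few loci recurred in every library. A single library accounted for 1122 single-exon loci (46.2%) and 59 spliced loci (25.5%), while 99 single-exon (4.07%) and 45 spliced loci (19.5%) were assembled in all 9. Of the 497 introns in spliced loci, 209 were found at the same bases in at least 2 libraries, 16 in all 9, and 99 are GENCODE introns. The loci are outside RefSeq genes and not outside every catalogue: 123 spliced (53.2%) and 626 single-exon loci (25.8%) share exonic bases with a GENCODE v44 gene, which is a long noncoding RNA for 482 loci and protein coding for 195. The label therefore holds for RefSeq. The other 1912 loci share no bases with a GENCODE exon, but whether they lie within GENCODE gene spans, introns included, was not examined.

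The share of the library that fell outside genes was higher at 6 µM than at 0 or 4 µM. The share is FPKM times length, summed over the loci, as a percentage of the same sum over all transcripts. It was 0.201%, 0.193% and 0.215% at 0 µM and 0.196%, 0.190% and 0.210% at 4 µM. At 6 µM it was 0.287%, 0.281% and 0.254%, so the 3 libraries at 6 µM lay above all 6 others while the 0 and 4 µM groups overlapped. The means were 0.203% ± 0.011, 0.199% ± 0.010 and 0.274% ± 0.018 (SD, n = 3 each). The difference was 0.0709 percentage points between 6 and 0 µM and 0.0753 between 6 and 4 µM, each with p = 0.1 in a two-sided exact permutation test, the smallest value 20 splits allow, and p = 0.4 after adjustment over 16 tests. Between 4 and 0 µM the difference was -0.0044 (exact p = 0.6), and with both treated doses against 0 µM it was 0.0332 (exact p = 0.310; 84 splits, smallest possible p 0.0119).

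Single-exon and spliced loci both stood higher at 6 µM. Single-exon loci held 0.160%, 0.140% and 0.160% at 0 µM, against 0.144%, 0.141% and 0.159% at 4 µM and 0.225%, 0.212% and 0.196% at 6 µM. Spliced loci held 0.0410%, 0.0529% and 0.0554% at 0 µM, then 0.0513%, 0.0499% and 0.0506% at 4 µM and 0.0630%, 0.0685% and 0.0582% at 6 µM. Neither class overlapped between 6 µM and the other doses. With all transcripts on the bases counted, as described below, both classes overlapped between 6 and 0 µM: single-exon loci held 0.458% to 0.521% at 0 µM and 0.516% to 0.566% at 6 µM, and spliced loci 0.0498% to 0.0914% and 0.0804% to 0.119%. The log2 ratio of the spliced to the single-exon share was -1.96, -1.41 and -1.53 at 0 µM, against -1.49, -1.5 and -1.65 at 4 µM and -1.83, -1.63 and -1.75 at 6 µM. Exact permutation tests of that ratio gave p = 0.6 for 6 against 0 µM, 0.8 for 4 against 0 µM and 0.2 for 6 against 4 µM, with differences of -0.11, 0.08 and -0.19, so a different response of the classes was not detectable with 3 libraries a dose. Loci assembled in every library showed the same order, with single-exon shares of 0.0501% to 0.0586% at 0 µM, 0.050% to 0.0551% at 4 µM and 0.0620% to 0.0660% at 6 µM.

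**Figure D1:**
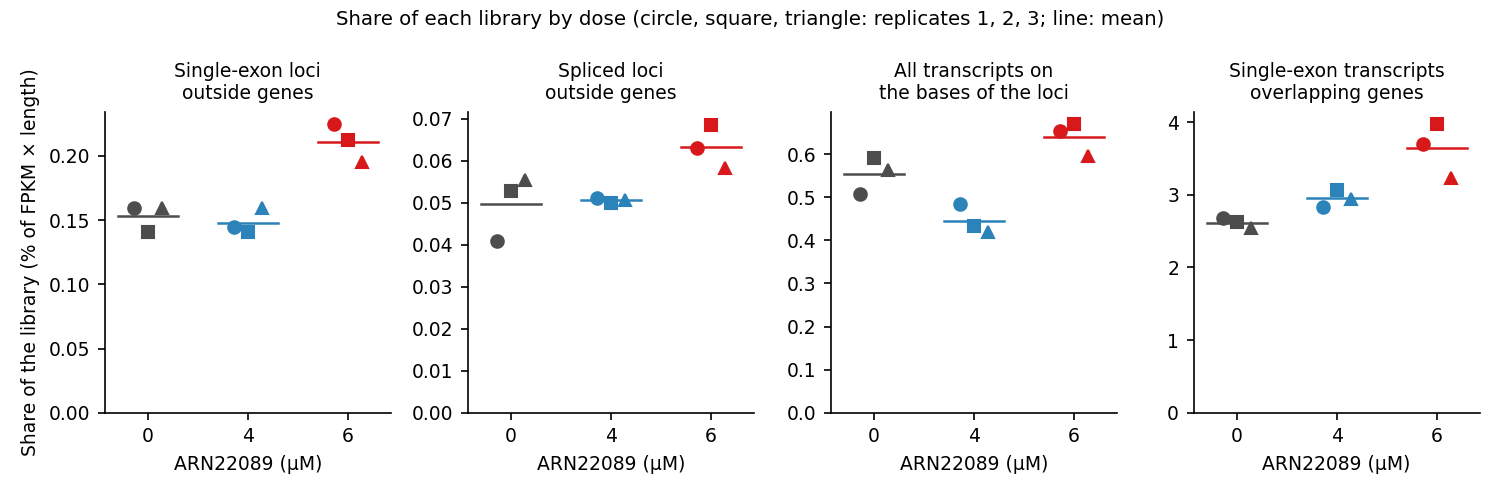
Share of each library (percent of FPKM times length, linear axis from 0) by ARN22089 dose in µM for single-exon loci, spliced loci, all transcripts on the bases of the loci, and single-exon transcripts that overlap genes; symbols are replicates and lines are means of 3. The 6 µM libraries are the highest in each panel, and in the third panel the 4 µM libraries (0.419% to 0.483%) lie below those at 0 µM (0.508% to 0.591%).

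Other quantities moved with dose in the same libraries. Single-exon transcripts that overlap annotated genes held 2.68%, 2.62% and 2.54% at 0 µM, then 2.83%, 3.07% and 2.94% at 4 µM and 3.70%, 3.97% and 3.23% at 6 µM. Both kinds of single-exon RNA were thus highest at 6 µM. The log2 ratio of the single-exon share outside genes to that overlapping genes was -4.22 to -3.99 at 0 µM. At 4 µM this ratio was -4.45 to -4.21 and at 6 µM -4.23 to -4.04, with all doses overlapping. The part of these quantities in the result was not tested. In bulk samples, fewer cells making an RNA and less of it per cell cannot be told apart.

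The share depends on which transcripts count as members. A fragment past the end of a gene is a member in a library where it was assembled on its own, but not in a library where the same bases were assembled as part of the gene's transcript. Counting every transcript on the bases of the 2661 loci, an alternative chosen after seeing the data, gave 0.508%, 0.591% and 0.563% at 0 µM, against 0.483%, 0.434% and 0.419% at 4 µM and 0.653%, 0.669% and 0.596% at 6 µM. The 6 µM libraries lay above all others, by 0.0854 points over 0 µM and 0.194 over 4 µM, and the 4 µM libraries lay 0.108 points below 0 µM without overlap (exact p = 0.1 for each pair, the smallest possible). Transcripts joined to genes made up 0.307%, 0.398% and 0.348% at 0 µM, then 0.287%, 0.244% and 0.210% at 4 µM and 0.365%, 0.388% and 0.343% at 6 µM.

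On that scale single loci weigh heavily. A single-exon locus at chr19:48964244-48965030, 279 bases before FTL, the gene of the ferritin light chain, was covered in the second 6 µM library by transcripts that reach into a gene at 1958 per base, 25.8% of that library's share, at 365 per base in the third 4 µM library and at 0 to 0.865 per base in the others. At chr21:46584708-46597924, past S100B, the second 0 µM library stood at 74.7 per base (17.7% of its share). The locus at chr8:98045663-98047337, 118 bases before RPL30, a ribosomal protein gene, lies wholly in exons of the GENCODE long noncoding RNA ENSG00000288752. It stood at 345, 230 and 162 per base at 0 µM, all of it from transcripts reaching into a gene, against 0.976, 0.703 and 1.35 at 4 µM and 0.501, 0.434 and 0.899 at 6 µM, where none reached into a gene. These 3 loci, each over 10% of the share of a library, were chosen after their values were seen. Without them the share was 0.447%, 0.445% and 0.534% at 0 µM, against 0.482%, 0.434% and 0.388% at 4 µM and 0.651%, 0.495% and 0.596% at 6 µM. The 0 µM group then overlapped with both treated doses, with differences of -0.0409 (4 against 0 µM, exact p = 0.4) and 0.105 (6 against 0 µM, exact p = 0.2), and 6 µM stayed above 4 µM by 0.146 (exact p = 0.1). Among the members alone no locus held over 10% of the share of a library (highest 5.30%).

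Position relative to genes was examined next. Single-exon loci within 5 kb past a gene held 0.0849%, 0.0765% and 0.0800% at 0 µM, against 0.0833%, 0.0813% and 0.0961% at 4 µM and 0.118%, 0.120% and 0.106% at 6 µM. Those more than 5 kb from any gene held 0.0398%, 0.0340% and 0.0416% at 0 µM, then 0.0288%, 0.0274% and 0.0310% at 4 µM and 0.0611%, 0.0436% and 0.0469% at 6 µM. Both sets were highest at 6 µM, and the distant set was lowest at 4 µM, with no overlap between any of the doses. With all transcripts counted, the set past genes overlapped between doses, at 0.170%, 0.271% and 0.206% at 0 µM, then 0.142%, 0.163% and 0.172% at 4 µM and 0.240%, 0.184% and 0.193% at 6 µM. The distant set kept its order there, at 0.0381% to 0.0440%, 0.0314% to 0.0329% and 0.0461% to 0.0635% for 0, 4 and 6 µM. By distance past the gene end, the ratio of the mean share at 6 µM to that at 0 µM was 1.37 within 250 bases (296 loci), 1.27 from 250 to 1000 bases (381 loci), 1.61 from 1000 to 5000 bases (469 loci), 1.27 from 5000 to 20000 bases (273 loci) and 1.2 beyond (67 loci). Before gene starts it was 1.28 within 250 bases (159 loci), 1.14 to 1000 bases (118 loci), 1.15 to 5000 bases (151 loci), 1.11 to 20000 bases (122 loci) and 2.11 beyond (63 loci). The 0 and 6 µM libraries were without overlap only within 250 bases on either side and from 1000 to 5000 bases past gene ends. The ratio of 2.11 came from 0.00275%, 0.00310% and 0.00435% at 0 µM and 0.00990%, 0.00733% and 0.00425% at 6 µM, which overlap.

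More loci were assembled at 6 µM than at 4 µM, and depth differed between the libraries as well. The single-exon loci numbered 680, 576 and 877 at 0 µM, against 591, 613 and 512 at 4 µM and 1175, 794 and 913 at 6 µM. The spliced loci numbered 102, 117 and 144 at 0 µM, then 108, 115 and 97 at 4 µM and 134, 116 and 121 at 6 µM. Both classes were without overlap between 6 and 4 µM (exact p = 0.1, the smallest possible; adjusted 0.4) and overlapped between 6 and 0 µM (exact p = 0.2 for single-exon and 0.9 for spliced loci). The deepest library at each of 0 and 6 µM had the most loci of its dose, and the shallowest library of all had the fewest loci of both classes. The second 6 µM library and the first 4 µM library, both at 1.00, had 794 and 591 single-exon loci. At 0 µM the library at 0.948 had more of them than the one at 0.974, and at 4 µM the deepest library did not have the most. The part of depth in these numbers was not tested.

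**Figure D2:**
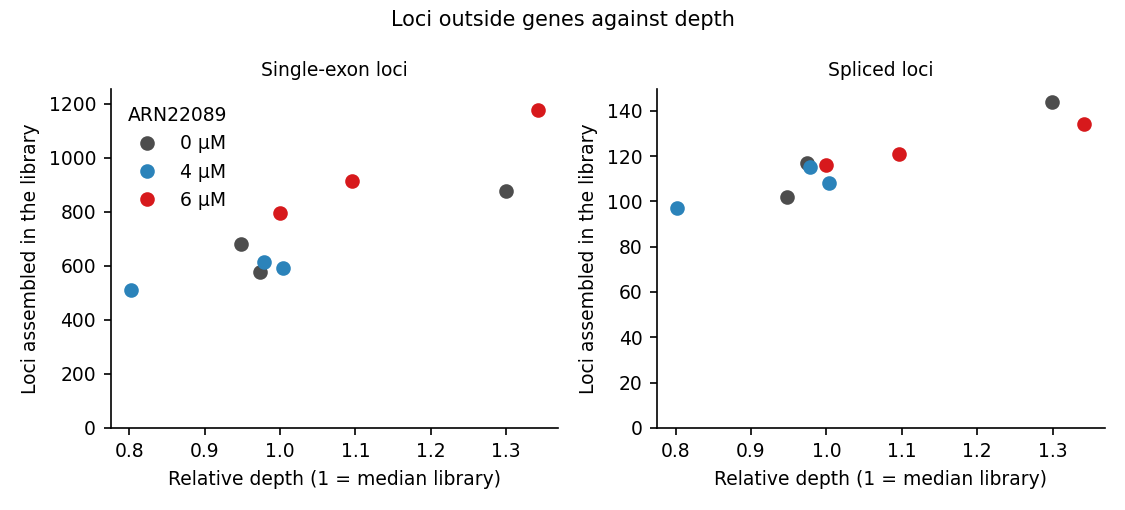
Number of single-exon and spliced loci assembled in each library (linear axis from 0) against relative depth, where 1 is the median library; points are libraries, coloured by ARN22089 dose in µM. The 4 µM library at a depth of 0.802 has 512 single-exon and 97 spliced loci, and the 6 µM library at 1.34 has 1175 and 134.

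Levels of single loci were compared in 1 fit with all named genes, on log2(summed FPKM + 1) with limma, for features whose level averaged 1 FPKM or more, and differences understate the change of low loci. Of the 2661 loci, 412 passed that minimum (110 spliced and 302 single-exon), beside 12188 named genes. The last locus inside had a mean of 1.00 FPKM and the first outside 0.998 FPKM. A locus that passed through 1 dose only had to differ: 6 spliced and 15 single-exon loci were listed at 0 in all libraries at 0 µM. The same held for 7 spliced and 10 single-exon loci at 4 µM, and for 6 and 10 at 6 µM. Of the loci tested, 45 spliced (40.9%) and 99 single-exon (32.8%) were above 0 in every library, against 86.6% of genes.

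One locus passed adjusted p under 0.05, in 6 against 0 µM, where 0.135% of all 12600 features did. No locus passed in 4 against 0 µM or in 6 against 4 µM, where 0.0556% of all features passed in each. At an unadjusted limma p under 0.05 there were 38 loci for 4 against 0 µM (9.22%, against 10.9% of all features), 51 for 6 against 0 µM (12.4%, against 17.6%) and 26 for 6 against 4 µM (6.31%, against 4.77%). The comparisons of 4 and 6 µM with 0 µM share the 0 µM libraries.

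More loci lay higher than lower without overlap in both treated doses against 0 µM. The part that lay higher was near that of all features, and the part that lay lower was smaller. The groups were without overlap and higher at 4 µM for 42 loci (10.2%, against 9.90% of all features) and lower for 11 (2.67%, against 8.29%). At 6 µM against 0 µM they were higher for 47 (11.4%, against 10.9%) and lower for 17 (4.13%, against 13.8%). Between 6 and 4 µM they were higher for 19 (4.61%, against 3.82%) and lower for 25 (6.07%, against 7.25%). The median log2 difference over the 412 loci was 0.18 for 4 against 0 µM (spliced 0.20, single-exon 0.17), 0.17 for 6 against 0 µM (0.17 and 0.17) and -0.02 for 6 against 4 µM (-0.07 and -0.01). Over all features the medians were 0.00, -0.03 and -0.03. When all transcripts on the same bases were counted per base, the median was 0.00 for 4 against 0 µM over the 444 loci that then passed the minimum. The single-exon median for 6 against 0 µM was 0.084 with members per base and 0.027 with all transcripts, and for 4 against 0 µM 0.016 and -0.019.

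**Figure D3:**
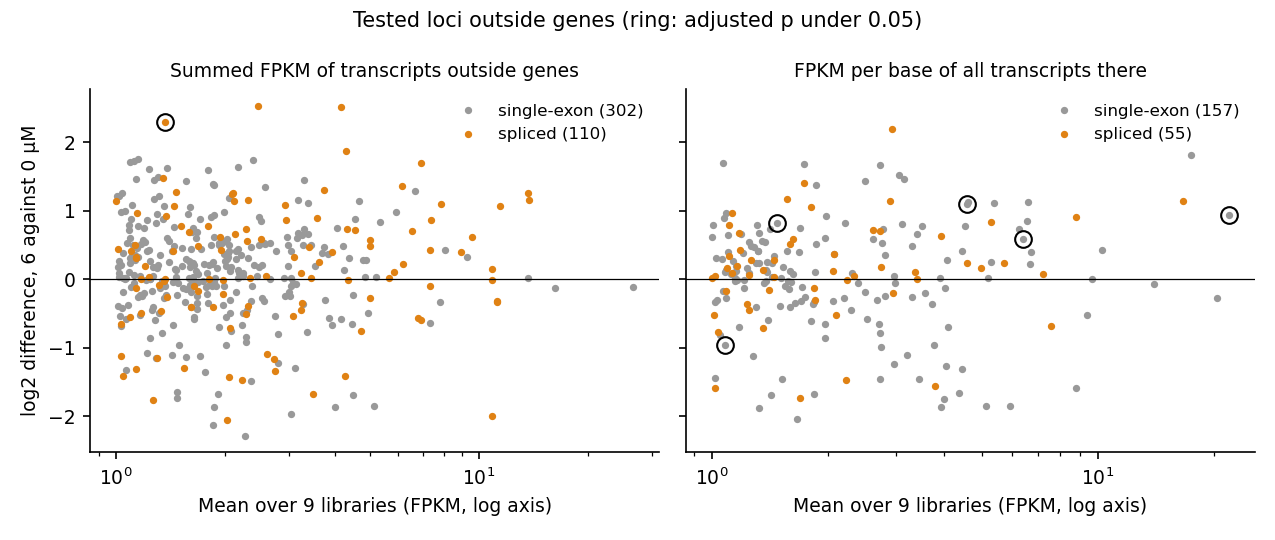
Log2 difference of 6 against 0 µM against the mean level over 9 libraries (FPKM, log axis) for loci outside genes, as summed FPKM (left, 412 loci) and as FPKM per base of all transcripts there (right, the 212 of them that passed the minimum on that scale as well); rings mark adjusted p under 0.05. There is 1 ring on the left, a spliced locus at 2.30, and 5 on the right, all single-exon.

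The locus that passed lies at chr6:453348-472017 on the plus strand, between IRF4, the transcription factor gene of melanocytes and lymphocytes, and EXOC2, which encodes a subunit of the exocyst. It lies 13137 bases past the annotated 3′ end of EXOC2, which is on the minus strand, and its 1 intron was found in 1 library. Of its 10326 exonic bases, 335 lie in exons of the GENCODE gene ENSG00000286364. The locus was listed at 0 in all 3 libraries at 0 µM, at 0.444, 0 and 0 FPKM at 4 µM, and at 4.48, 3.47 and 3.89 FPKM at 6 µM. The 6 µM libraries stood apart from all others, and the log2 difference from 0 µM was 2.30 ± 0.31 (SE; limma adjusted p = 0.0455) and from 4 µM 2.12 (adjusted p = 0.117). With spans within 1 kb merged, the difference from 0 µM was 1.77 (limma adjusted p = 0.280). With a replicate block the adjusted p for 6 against 0 µM was 0.0596, with FPKM rescaled to a fixed sum it was 0.0524 and with a pseudocount of 0.1 it was 0.0799. Leaving out 1 library at a time it ranged from 0.0439 to 0.129. The call stood when the first 0 µM library (0.0439) or the last 4 µM library (0.0493) was dropped. Dropping the second or the third library at 0 µM (0.0695, 0.0776), the first or second at 4 µM (0.0569, 0.0761) or the second or the third at 6 µM (0.129, 0.0586) ended it, and without the first at 6 µM the mean was under the minimum. It passed the minimum through its 6 µM libraries alone, and no transcript joined to a gene covered its bases in any library.

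Its flanking genes were measured in the same libraries. IRF4 stood at 10.7, 15.2 and 12.4 FPKM at 0 µM, 20.5, 23.9 and 32.9 FPKM at 4 µM and 51.6, 12.2 and 35.0 FPKM at 6 µM, with a log2 difference of 1.10 ± 0.45 for 6 against 0 µM that did not pass (adjusted p = 0.262). EXOC2 stood at 11.7, 13.3 and 10.6 FPKM at 0 µM, 22.5, 8.49 and 10.0 FPKM at 4 µM and 24.3, 16.2 and 14.4 FPKM at 6 µM (6 against 0 µM log2 difference 0.55, adjusted p = 0.430). Its 6 µM libraries all lay above those at 0 µM, and the first 4 µM library, where the locus was assembled, was the highest at 4 µM. In the second 6 µM library IRF4 was within its 0 µM range while the locus was at 3.47 FPKM. A link of the locus to either gene was not tested.

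Spliced loci whose introns recur give the firmest identity. The highest of those with an intron in all 9 libraries and no GENCODE exon lies at chr6:48425162-48429172 on the minus strand, 95262 bases from the nearest RefSeq gene. It stood at 3.86, 5.93 and 9.74 FPKM at 0 µM, 15, 9.95 and 15.3 FPKM at 4 µM and 18.2, 9.22 and 16.0 FPKM at 6 µM. The 4 µM libraries were all above the 0 µM libraries, while the second 6 µM library fell below the third at 0 µM. The log2 differences of 0.99 ± 0.34 and 1.07 ± 0.34 did not pass (limma adjusted p = 0.391 and 0.171).

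ENSG00000258927, whose 3 junctions are printed above, is a long noncoding RNA at chr14:95620926-95648929, upstream of TCL6. All 4 introns of the locus are GENCODE introns. It stood at 2.68, 3.00 and 3.33 FPKM at 0 µM, 5.02, 5.48 and 4.37 FPKM at 4 µM and 7.46, 4.06 and 5.68 FPKM at 6 µM. Both treated doses were above 0 µM in every library, with log2 differences of 0.57 ± 0.21 and 0.72 ± 0.21 that did not pass (adjusted p = 0.404 and 0.146). Per base of all transcripts on the locus the difference between 6 and 0 µM was 0.03, so the separation is not seen on that scale.

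The other loci with printed junctions overlapped between doses or varied between libraries of a dose. ENSG00000249022, a long noncoding RNA past FHDC1, stood at 8.91, 15.3 and 10.5 FPKM at 0 µM, 14.4, 15.4 and 9.11 FPKM at 4 µM and 8.24, 12.4 and 6.81 FPKM at 6 µM. ENSG00000227297, past ZBP1, stood at 13.9, 6.90 and 6.42 FPKM at 0 µM, 10.6, 16.8 and 10.1 FPKM at 4 µM and 4.45, 17.8 and 10.6 FPKM at 6 µM. ENSG00000254350 stood at 1.84, 4.01 and 2.76 FPKM at 0 µM, 6.73, 6.82 and 5.97 FPKM at 4 µM and 10.8, 4.17 and 1.9 FPKM at 6 µM. Of these 3, only ENSG00000254350 was without overlap between 4 and 0 µM, with a log2 difference of 0.99 that did not pass (adjusted p = 0.480). ENSG00000250993, whose intron of 75105 bases is the longest of those printed, stood at 5.56, 10.3 and 9.60 FPKM at 0 µM, 6.47, 7.67 and 4.87 FPKM at 4 µM and 3.19, 7.94 and 5.40 FPKM at 6 µM. None of the 8 genes passed in any of the 3 comparisons.

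Among spliced loci assembled in at least 6 libraries, the smallest unadjusted p for 6 against 0 µM belonged to chr12:20775747-20783326, on the minus strand 22361 bases past SLCO1C1, a thyroid hormone transporter gene. It stood at 6.69, 6.80 and 4.78 FPKM at 0 µM, 5.83, 4.66 and 4.26 FPKM at 4 µM and 1.47, 3.03 and 0.844 FPKM at 6 µM. All 3 libraries at 6 µM were below the 6 others, and the log2 difference from 0 µM was -1.41 ± 0.30 (adjusted p = 0.0695). Its 2 introns were each found in 1 library. Counting all transcripts per base it stood at 1.12, 1.63 and 0.993 at 0 µM and 0.736, 0.804 and 0.301 at 6 µM, also without overlap.

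A spliced locus 3287 bases upstream of RUNX3, a Runt-domain transcription factor gene, lies at chr1:24968425-24972699. It was listed at 0, 0 and 2.37 FPKM at 0 µM, 7.76, 5.18 and 5.38 FPKM at 4 µM and 8.62, 4.35 and 0 FPKM at 6 µM. RUNX3 itself stood at 12.5, 12.7 and 13.9 FPKM at 0 µM, 30.8, 23.8 and 22 FPKM at 4 µM and 43.1, 35.1 and 25.6 FPKM at 6 µM. The gene was higher in all treated libraries, with a log2 difference of 1.31 ± 0.21 at 6 µM that did not pass (adjusted p = 0.0533), while the locus gave 2.23 ± 0.81 at 4 µM (adjusted p = 0.400) and was at 0 in the third library at 6 µM.

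The rest of the spliced loci with the smallest p did not pass either. At chr7:50851911-50864254 the level was 0.684 to 1.35 FPKM at 0 µM, 2.32 to 3.02 at 4 µM and 1.09 to 3.14 at 6 µM (4 against 0 µM 0.88 ± 0.30, adjusted p = 0.391). The locus at chr11:112787383-112804935 gave 0.91 ± 0.31 for 4 against 0 µM (adjusted p = 0.391) but -0.33 per base, so its direction depends on the scale. At chr15:62228389-62235141 it was 1.18 to 2.04 FPKM at 0 µM, 1.35 to 2.56 at 4 µM and 0, 0.705 and 0 at 6 µM (6 against 0 µM -1.15, adjusted p = 0.146). Loci at chr11:61466360-61473674 and chr12:65647098-65654635 gave 1.73 and -1.05 for 6 against 4 µM (adjusted p = 0.958 for both).

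**Figure D4:**
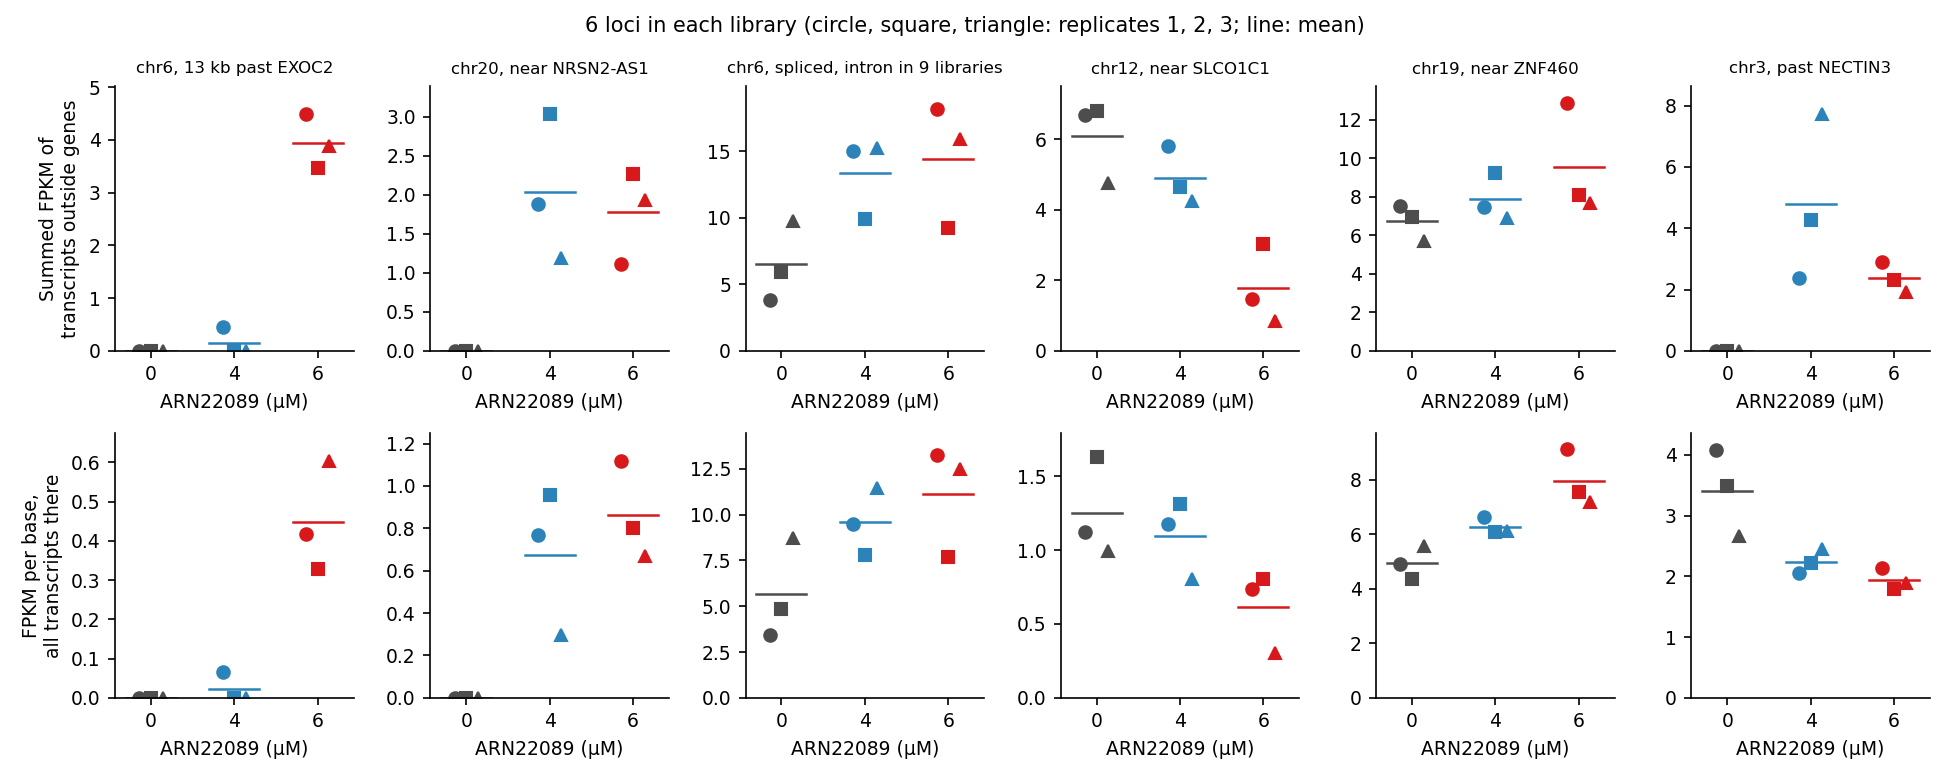
Level of 6 loci in each library by ARN22089 dose in µM, as summed FPKM of transcripts outside genes (top) and as FPKM per base of all transcripts there (bottom); symbols are replicates, lines are means of 3 and axes start at 0. The locus past NECTIN3 is listed at 0 in the 3 libraries at 0 µM in the top panel, and stands at 4.08, 3.49 and 2.66 there in the bottom panel.

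Just past gene ends, 2 loci show how the edge of a gene sets membership. The locus at chr3:111194186-111201509 starts 16 bases past NECTIN3, which encodes a cell adhesion protein. Its summed FPKM was listed at 0 in all libraries at 0 µM, and was 2.36, 4.28 and 7.71 at 4 µM and 2.88, 2.31 and 1.91 at 6 µM, with log2 differences of 2.42 ± 0.35 and 1.74 ± 0.35 (adjusted p = 0.103 and 0.0673). The locus passed the minimum through its treated libraries alone. It passed in both comparisons with a pseudocount of 0.1 (adjusted p = 0.0138 and 0.0313) and with members alone per base (0.0178 and 0.0168). Counting all transcripts on its bases, it stood at 4.08, 3.49 and 2.66 per base at 0 µM, against 2.06, 2.21 and 2.45 at 4 µM and 2.13, 1.79 and 1.88 at 6 µM. The order turned round, to -0.43 and -0.58 (adjusted p = 0.277 and 0.0704). At 0 µM all of the level on these bases came from transcripts that reach into a gene, at 4 µM none of it did, and at 6 µM 0.127 per base did in 1 library. NECTIN3 stood at 9.55, 7.44 and 6.39 FPKM at 0 µM and 3.12, 3.2 and 4.8 at 6 µM.

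The locus at chrX:29959129-29962050, 2411 bases past IL1RAPL1, a synaptic adhesion gene, was chosen after its values were seen, as the one with the smallest p for 6 against 4 µM. It was listed only at 4 µM, at 2.57, 3.49 and 3.48 FPKM (6 against 4 µM -2.06 ± 0.31, adjusted p = 0.139). The locus passed the minimum through its 4 µM libraries alone, so it had to differ on this scale. All transcripts on its bases gave 3.41, 4.42 and 4.65 per base at 0 µM, then 2.44, 3.31 and 3.45 at 4 µM and 3.44, 3.6 and 3.37 at 6 µM. On that scale the doses overlapped and no difference passed. Transcripts reaching into a gene held the whole level at 0 and 6 µM and 1.41 per base in 1 library at 4 µM. Another case lies 87 bases past TAF13, which encodes a TFIID subunit, at chr1:109062488-109064053: it was listed at 0 in the first 4 µM library and at 13.8 to 39.5 FPKM in the others, while all transcripts there gave 12.4 to 16.1 per base in the 9 libraries. Of its 1566 bases, 1558 lie in exons of GENCODE's longer TAF13.

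At 2 other loci past gene ends, the 6 µM libraries lay above those at 0 µM on both scales. At chr20:311509-314777, 4910 bases past NRSN2-AS1, the level was 0 in all libraries at 0 µM, 1.88, 3.03 and 1.19 FPKM at 4 µM and 1.12, 2.27 and 1.94 FPKM at 6 µM. With all transcripts per base it was 0.768, 0.957 and 0.298 at 4 µM and 1.12, 0.801 and 0.671 at 6 µM, so the mean was higher at 4 µM as summed FPKM (2.03 against 1.77) and at 6 µM per base (0.863 against 0.674). Every treated library was above 0 and no transcript joined to a gene covered the bases, yet the differences of 1.56 ± 0.34 and 1.45 ± 0.34 did not pass (adjusted p = 0.263 and 0.0883). This locus passed the minimum through its treated libraries alone. At chr3:72979315-72981282, 2400 bases past GXYLT2, a xylosyltransferase gene, it was 2.52, 2.46 and 3.49 FPKM at 0 µM, 4.01, 4.84 and 3.01 FPKM at 4 µM and 5.52, 5.33 and 5.28 FPKM at 6 µM. The 6 µM libraries were above all others, with 0.75 ± 0.20 (adjusted p = 0.113) and, per base of all transcripts, 0.78 (adjusted p = 0.0585), while GXYLT2 differed by -0.26 (adjusted p = 0.560).

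ZNF460, a zinc finger gene, is followed after 3710 bases by a single-exon locus at chr19:57297779-57308560. Per base of all transcripts it stood at 4.92, 4.36 and 5.57 at 0 µM, against 6.65, 6.08 and 6.11 at 4 µM and 9.15, 7.56 and 7.20 at 6 µM. The 3 doses were without overlap and in order of dose, with 0.59 ± 0.12 for 6 against 0 µM (limma adjusted p = 0.0438), where 4.09% of the 11628 features on that scale passed. As summed FPKM the difference was 0.42 ± 0.22 (adjusted p = 0.344). ZNF460 itself was at 0 to 1.60 FPKM. The locus was chosen for passing per base, after its values were seen.

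On that per-base scale of all transcripts, 12 of 444 loci passed in 6 against 0 µM, where 4.09% of all 11628 features passed. Of the loci tested, 8 passed as higher (1.80%) and 4 as lower (0.901%). In 4 against 0 µM 1 locus passed (the locus before RPL30, at -6.88), against 0.043% of all features. In 6 against 4 µM no locus passed, against 0.0344% of all features. The locus before RPL30 passed in 6 against 0 µM as well (-7.20 ± 0.27, limma adjusted p = 1.68e-05). The 3 loci named next were chosen for passing there, after their values were seen. The locus at chr10:28889704-28896163 stood at 1.68, 2.69 and 3.14 per base at 0 µM, then 4.14, 5.28 and 4.85 at 4 µM and 5.04, 6.79 and 7.58 at 6 µM (1.10 ± 0.20, adjusted p = 0.0345). Its summed FPKM gave -0.34, with the locus listed at 0 in the first 6 µM library, where a transcript reaching into a gene held all 5.04 per base. At chr17:31768628-31774063 it was 2.06, 1.81 and 2.12 per base at 0 µM, against 0.598, 0.848 and 0.674 at 4 µM and 0.430, 0.562 and 0.645 at 6 µM (-0.96, adjusted p = 0.0359), so all treated libraries lay under those at 0 µM.

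At chr6:164075855-164083218 all transcripts stood at 9.15, 15.3 and 16.5 per base at 0 µM and 23.5, 28.9 and 27.3 at 6 µM (0.94, adjusted p = 0.0469), and summed FPKM gave -0.49. That direction reversed between the scales. With members alone per base, 6 of 165 loci passed in 6 against 0 µM, where 4.36% of features did, 1 in 4 against 0 µM (the locus past NECTIN3; 0.0617% of features) and none in 6 against 4 µM (0.0352%). A spliced locus among them, at chr4:44662779-44664893, 580 bases upstream of YIPF7, stood at 0.419, 0.624 and 0.364 at 0 µM, against 1.46, 1.5 and 1.03 at 4 µM and 1.48, 1.49 and 1.61 at 6 µM (0.79, adjusted p = 0.0483). Single-exon loci at chr15:50360649-50371504 and chr13:18232155-18237829 passed with 0.91 and 1.24 (adjusted p = 0.0360 and 0.0443), but with all transcripts counted gave 0.73 and 0.10 and did not pass. All 10856 bases of the first lie in exons of GABPB1-AS1, a long noncoding RNA in GENCODE.

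Before gene starts, the loci of the promoter windows printed above showed no difference that passed. The MLXIP locus at chr12:122072057-122078728, which ends 28 bases before the gene, stood at 4.42, 4.16 and 2.42 FPKM at 0 µM, 4.47, 5.08 and 4.31 FPKM at 4 µM and 1.2, 2.61 and 1.44 FPKM at 6 µM. The 6 µM libraries were below all 4 µM libraries (-1.06, adjusted p = 0.858), but per base of all transcripts the values were 0.658 to 1.34 over the 9 libraries and that difference was 0.04. The ATP1B3 locus at chr3:141875682-141876505 stood at 3.23, 2.93 and 2.78 FPKM at 0 µM, then 0, 9.52 and 7.80 at 4 µM and 2.47, 19.2 and 12.2 at 6 µM (6 against 0 µM 1.29, adjusted p = 0.501). In the first 4 µM library, where it was listed at 0, other transcripts covered its bases at 60.9 FPKM. The ZMPSTE24 locus at chr1:40256446-40258028 ranged from 1.25 to 3.66 FPKM, with all doses overlapping (6 against 0 µM 0.21 ± 0.31, adjusted p = 0.755).

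None of the 12 most abundant loci, 6 of each class, passed as summed FPKM. The highest mean belonged to a single-exon locus of 1139 bases at chr14:23583171-23584309, 4381 bases upstream of JPH4, a junctophilin gene. It stood at 26.4, 28.4 and 29.0 FPKM at 0 µM, against 24.6, 22.3 and 30.7 at 4 µM and 28.2, 21 and 28.7 at 6 µM (6 against 0 µM -0.11 ± 0.17, adjusted p = 0.765). A locus 282 bases past PANX1, a channel gene, at chr11:94182250-94185582 ranged from 5.48 to 14 FPKM with all doses overlapping (0.32, adjusted p = 0.651). Spliced loci at chr20:16859331-16874870 and chr2:107678346-107746943 ranged from 4.27 to 22.5 and from 6.99 to 16.0 FPKM (-0.33 and 0.00; adjusted p = 0.783 and 0.999). The spliced locus at chr6:164993818-165184225 stood at 5.17, 7.94 and 15.6 FPKM at 0 µM, then 13.6, 10.3 and 7.09 at 4 µM and 22, 27.6 and 14.6 at 6 µM (1.16 ± 0.39, adjusted p = 0.186).

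The remaining single-exon loci of smallest p gave these values. At chr12:55479239-55480093 the level was 2.17 to 3.07 FPKM at 0 µM, 5.35 to 6.25 at 4 µM and 3.68 to 4.93 at 6 µM, 3 groups without overlap (4 against 0 µM 0.91 ± 0.18, adjusted p = 0.255). At chr1:23717021-23723160, 20186 bases past the ribosomal protein gene RPL11, it was 0 to 1.21, 3.42 to 4.61 and 1.79 to 4.03 FPKM at 0, 4 and 6 µM (1.66 and 1.35, adjusted p = 0.263 and 0.111). For 6 against 4 µM, loci near IL3RA at chrX:1383078-1385131, near S100A11P3 at chr11:71502510-71505911 and near TYW2 at chr8:124453155-124459582 gave -1.85, 1.47 and 1.14 (adjusted p = 0.932, 0.958 and 0.958). None of these 5 loci passed.

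Loci far from genes were unevenly placed. A window of 1 Mb on chromosome 21, from 27 to 28 Mb, held 27 loci more than 5 kb from any gene, 2 of them spliced, while the next window, on chromosome 8, held 10. Its share of the library was 0.000875%, 0.00452% and 0.00446% at 0 µM, against 0.00309%, 0.00286% and 0.00501% at 4 µM and 0.0131%, 0.0125% and 0.00710% at 6 µM. All 3 libraries at 6 µM were above the others. The window was chosen for its number of loci over all libraries pooled, so libraries with more loci weighed more in that choice. The highest locus, spliced and on the minus strand at chr21:27765036-27812216, stood at 2.11, 15.2 and 11.4 FPKM at 0 µM, then 8.68, 7.72 and 15.8 at 4 µM and 11.4, 28.5 and 22.3 at 6 µM, with groups that overlap (1.26 ± 0.61, adjusted p = 0.328). Per base it was at 0.0929, 0.640 and 0.317 at 0 µM, against 0.363, 0.344 and 0.452 at 4 µM and 1.34, 1.39 and 1.18 at 6 µM, where the 6 µM libraries stand apart. The next, a single-exon locus at chr21:27696266-27697887, ranged from 6.64 to 22.7 FPKM (0.02, adjusted p = 0.991). Per base of all transcripts it stood at 2.73, 4.86 and 6.23 at 0 µM, against 6.91, 5.29 and 6 at 4 µM and 8.84, 8.92 and 6.5 at 6 µM, so 6 µM lay above 0 µM without overlap (0.74, adjusted p = 0.114). Without the window, the share outside genes was still higher at 6 µM than at 0 µM, by 0.0633 points (exact p = 0.1, the smallest possible).

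**Figure D5:**
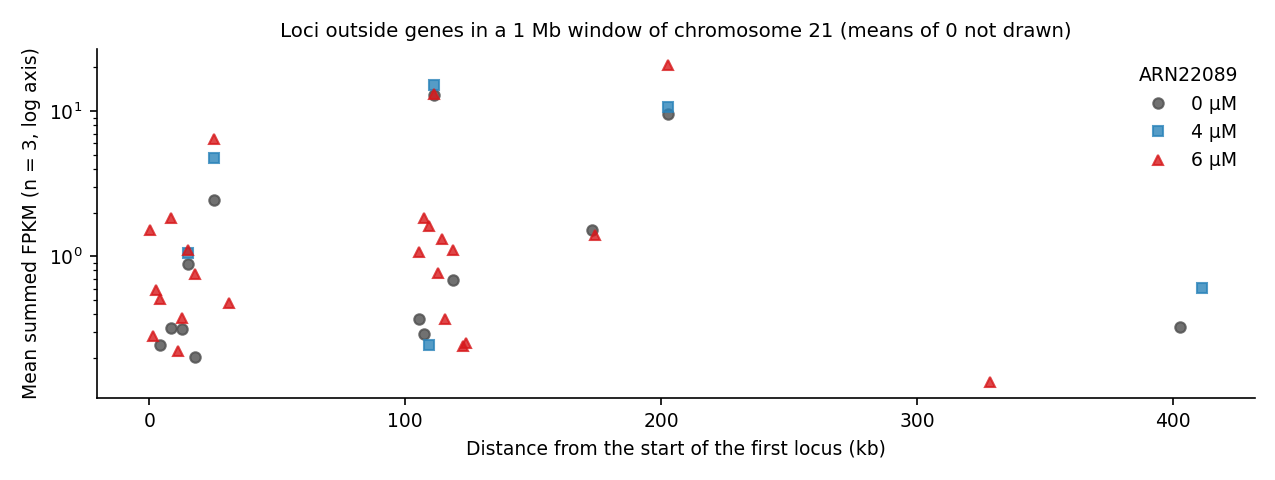
Mean summed FPKM over 3 libraries (log axis) of the 27 loci in the chromosome 21 window against distance in kb from the start of the first locus, by ARN22089 dose in µM; means of 0 are not drawn. Of the 27 loci, 13 were assembled at 0 µM, 6 at 4 µM and 24 at 6 µM, and 12 of them at 6 µM only. Over the whole genome, a library held 693 to 1021 loci at 0 µM, 609 to 728 at 4 µM and 910 to 1309 at 6 µM. The part of all loci assembled at 6 µM only was not counted.

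Finally, each locus was set beside its nearest gene. For single-exon loci within 5 kb past a gene, 114 pairs with 111 tested genes gave r = 0.084 between the log2 differences of locus and gene for 6 against 0 µM. The median was 0.20 for the 145 such loci and -0.10 for the genes. For single-exon loci before gene starts r was 0.418 over 35 pairs, and for spliced loci past gene ends 0.350 over 11 pairs. In the same order, r was 0.153, 0.156 and 0.211 for 4 against 0 µM and 0.185, 0.037 and 0.314 for 6 against 4 µM. The pairs share libraries and some share a gene, so these values are descriptions.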

How the data were processed

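Polyadenylated RNA of 9 cultures of WM3248 (3 libraries at each of 0, 4 and 6 µM) was sequenced. Per the submitters' processing notes, the authors' tools were Cufflinks 2.2.1, TopHat2 2.1 with Bowtie2 2.2.7, Trimmomatic, SAMtools 1.9 and R 4.0.3. The deposited files are 1 transcript assembly per library, and the unit used, FPKM, stands in the attribute text of each transcript beside its coverage. The notes name GRCh37, but of 162878 distinct introns 147955 (90.8%) lie at a GENCODE v44 intron's GRCh38 position and 1087 (0.667%) at its GRCh37 position, so all coordinates are GRCh38. The assemblies carry no gene names: 184779 of 193769 spliced transcripts were named by an intron they share with GENCODE transcripts of a RefSeq gene on the same strand.

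Members were found as described, and relative depth is the ratio of coverage to FPKM. FPKM are not counts, so limma 3.58.1 (trend, R 4.3.3) was fitted to log2(FPKM + 1) over all 12600 features with a mean of at least 1 FPKM, 9 libraries and 6 residual degrees of freedom, with Benjamini-Hochberg adjustment over all of them. Values per library were compared with two-sided exact permutation tests.

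Loci were named where they passed in any comparison, as the 6 spliced and 6 single-exon loci of highest mean, and as the 4 of each class with the smallest p per comparison among loci in at least 6 libraries; other loci are said to be chosen after their values were seen. The members and lists were chosen with earlier results of these data known. Deviations of same-numbered libraries correlated with r from -0.012 to 0.134 over 9 pairs, others from -0.123 to 0.018 over 18. Same-numbered libraries share a date-like tag in the labels, which do not say what it marks, so the numbers were not taken to pair libraries and the block is an alternative. Other pseudocounts, filters, scalings, lengths, distances and merging were tried as well. Not every locus that passed only with all transcripts counted is reported here.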

Additional observations from a re-analysis of the deposited data

How the results depend on the processing

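The mean share outside genes was higher at 6 than at 0 and 4 µM under each alternative tried, but with all transcripts and without 3 loci the 0 and 6 µM libraries overlapped. The number of loci past adjusted p under 0.05 (limma) was small under all. For 4 against 0 µM it was 1 with a pseudocount of 0.1, without a filter, per base, without a minimum length and with all transcripts on the bases. For 6 against 0 µM it was 0 when FPKM were rescaled, when spans within 1 kb were merged and with the replicate block, 2 without a minimum length, 6 per base and 12 with all transcripts. On the last 2 scales 4.36% and 4.09% of all features passed. For 6 against 4 µM the number of loci was 2 without a filter. Leaving out 1 library at a time gave 0 to 1 (1 without replicate 2 at 0 µM), 0 to 1 (0 without replicate 3 at 0 µM, 1 or 2 at 4 µM, or 1 or 2 at 6 µM) and 0 to 0 calls.

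The median log2 difference for 4 against 0 µM was 0.31 with a pseudocount of 0.1, and 0 without a filter and with all transcripts; for 6 against 0 µM it was 0.28 with a pseudocount of 0.1 and 0.032 over 5 kb from genes; for 6 against 4 µM it was 0.13 without a filter, 0 per base, 0 with spans within 1 kb merged and 0.062 with all transcripts. Leaving out libraries gave 0.15 to 0.23, 0.08 to 0.22 and -0.088 to 0. With both treated doses against 0 µM, the share turned to -0.0115 with all transcripts, and the spliced to single-exon ratio to 0.24 over 5 kb from genes and 0.36 with all transcripts; for 6 against 0 µM that ratio was 0.022 and 0.29. With all transcripts but without the 3 loci near FTL, S100B and RPL30 the ratios were 0.22 and 0.22. The number of spliced loci turned to 1.33 where an intron in at least 2 libraries was required.

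Without 1 library the share differed by -0.0100 to 0.00157 (4 against 0 µM), 0.0641 to 0.0810 (6 against 0 µM), 0.0686 to 0.0854 (6 against 4 µM) and 0.0230 to 0.0424 (both against 0 µM). The ratio ranged from -0.080 to 0.20, -0.27 to 0.0060, -0.24 to -0.14 and -0.18 to 0.10. The number of single-exon loci ranged from -206.5 to -56, 142.5 to 333, 281.5 to 472 and -26.4 to 138, and of spliced loci from -23.8 to -2.83, -6.83 to 14.2, 11.8 to 21.2 and -15.3 to 5.67.

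Of 539 values for named loci, 505 kept direction and side, 10 were lost, 12 were gained and 12 reversed. Reversals were at chr11:112787383-112804935 (-0.33 per base, -0.33 with all transcripts), chr10:28889704-28896163 (0.24 and 1.10; -1.04 to 0.92 without 1 library), past NECTIN3 (-0.43 and -0.58 with all transcripts), before MLXIP (0.092 and 0.035), past IL1RAPL1 (0.15) and at chr6:164075855-164083218 (0.59 with 1 kb merging, 0.94 with all transcripts). Where no value above shows it, the cause was not tested. Within the replicate block the share was higher at 6 µM in 3 of 3 pairs (exact p = 0.25, the smallest possible). Without fragment counts, depth limits loci near 1 FPKM, where a library without an assembled transcript is listed at 0. The counts with all transcripts, without the 3 loci and without the chromosome 21 window were chosen after seeing the data.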

Other observations

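Transcripts under 300 bases, left out above, hold a few very high FPKM values. One of 2 such places outside genes assembled in all 9 libraries, among 82 places, lies on chromosome 4 from 16942643 to 16942774 in its widest form. It stood at 830, 264 and 580 FPKM at 0 µM, 684, 809 and 659 FPKM at 4 µM and 2154, 596 and 1037 FPKM at 6 µM. The doses overlapped.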
